A study of Mus musculus with 6 samples.

Results

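The 10 genes described here, Cx3cr1, Tmem119, Siglech, Fcrls, Selplg, Crybb1, Slc2a5, Golm1, Ltc4s and Gpr84, belong to the signature by which resting microglia are told apart from other macrophages and brain cells. They were taken by symbol from a set of homeostatic signature genes, leaving out P2Y receptors, transcription factors and secreted matrix genes. The rule uses no measured value, but the rule and the genes were chosen with earlier results of these data known. All 10 are among the 11881 genes of the deposited count table, and all 10 passed the filter on low counts, which left 10832 genes. The cells came from the hippocampus of male mice aged 17 to 21 days after birth and were sorted by a gate of positive CD11b and low CD45. There were 3 mice labelled WT (wild type) and 3 labelled Mll5+/-, in which 1 of the 2 alleles of Mll5 (symbol Kmt2e), which encodes a chromatin-associated protein, is disrupted. Each mouse gave 1 RNA-seq library, made from TRIzol-extracted RNA by the SMART-seq method. The labels name no strain, no exact age of each mouse and no design of the disrupted allele. The labels name no agent for either group.

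Microglia arise from yolk sac precursors and keep a characteristic gene program as long as the brain's own signals, among them TGF-beta, act on them. Much of that program encodes surface molecules with which the cell senses neurons, lipids, sugars and other immune cells, and many of its genes are switched down when microglia become activated or are taken into culture. The fractalkine receptor CX3CR1 reads a ligand made by neurons and has a part in the pruning of synapses in the young hippocampus, while TMEM119 and FCRLS are used as markers to separate microglia from infiltrating macrophages. GPR84 stands apart in the group, since it is also known as a receptor that inflammatory stimuli raise.

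The libraries held between 21075570 and 29730400 counts, and the lowest count of any of the 10 genes in any library was 194. Levels are given as CPM (counts scaled to a common library size, with sizes adjusted by TMM), and differences as the log2 fold change of the libraries labelled Mll5+/- over those labelled WT. Kmt2e itself had 480, 378 and 688 CPM under the WT label and 648, 298 and 513 CPM under the Mll5+/- label (log2 fold change -0.08, SE 0.314), so a lost copy was not seen in the counts of the whole gene, and genotypes are therefore given as labelled. The gate's own genes were abundant in every library, with Itgam (CD11b) between 672 and 877 CPM and Ptprc (CD45) between 421 and 777 CPM. Markers of other cells were also counted, including astrocyte, oligodendrocyte, neuron and vascular cells, which a CD11b gate is meant to remove. Of these lists, border-associated macrophage genes (6 of 10 in the table) summed to 322, 328 and 265 CPM under the WT label and 417, 369 and 692 CPM under the Mll5+/- label. Those sums did not overlap between genotypes. All 5 tested genes of that list lay above 0 in log2 fold change (median 0.70). Each of the 5 overlapped between genotypes, and none had an unadjusted p under 0.05. Astrocyte genes (8 of 12) summed to 498, 421 and 614 CPM and 294, 585 and 383 CPM, most of it from Slc1a3. Of these 8 genes, 3 lay above 0 in log2 fold change and 5 below. Gja1 had 22.7, 23.2 and 28.6 CPM under the WT label and 3.51, 6.71 and 1.75 CPM under the Mll5+/- label. Plpp3 had 15.5, 11.5 and 23.0 CPM against 3.39, 4.39 and 5.62 CPM. These 2 were lower without overlap, as were 4.64% of all tested genes. Summed monocyte and neutrophil genes (6 of 14) lay between 200.2 and 281 CPM, of which Csf3r alone gave between 181 and 268 CPM. Oligodendrocyte lineage genes (7 of 12) summed to between 104 and 187 CPM and neuron genes (4 of 13) to between 39.6 and 92.0 CPM. Endothelial and mural genes (6 of 11) lay between 14.5 and 31.7 CPM, and the lymphocyte gene Cd79b (1 of 12) between 1.56 and 16.4 CPM. None of the 6 erythrocyte genes looked for is in the table.

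None of the 10 genes differed between the labelled genotypes at an adjusted p of 0.05 in edgeR's quasi-likelihood test (smallest adjusted p of the 10 genes 0.9995), where 0 of 10832 genes (0%) were called. None had an unadjusted p under 0.05 either, against 312 of all tested genes (2.88%). Fitted log2 fold changes were below 0 for 9 of the 10 genes and above 0 for Tmem119 alone, with a median of -0.14, beside a median of 0.02 over all tested genes, of which 48.2% lay below 0. The number below 0 was 6 of 10 without WT replicate 2, WT replicate 3 or Mll5+/- replicate 3 and with limma-voom, and the median was -0.35 without WT replicate 1 and -0.03 without WT replicate 2. Levels did not overlap between genotypes for 1 of the 10 genes, Tmem119, against 9.32% of all tested genes (4.68% higher and 4.64% lower under the Mll5+/- label). DESeq2, run on all 11881 listed genes, called 29 of them (0.244%) and none of these 10. That share is over all listed genes, with or without an adjusted p, so it is not on the same footing as the edgeR share. These are RNA levels of sorted cell populations, in which fewer cells with a transcript and less of it per cell cannot be told apart.

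**Figure D1:**
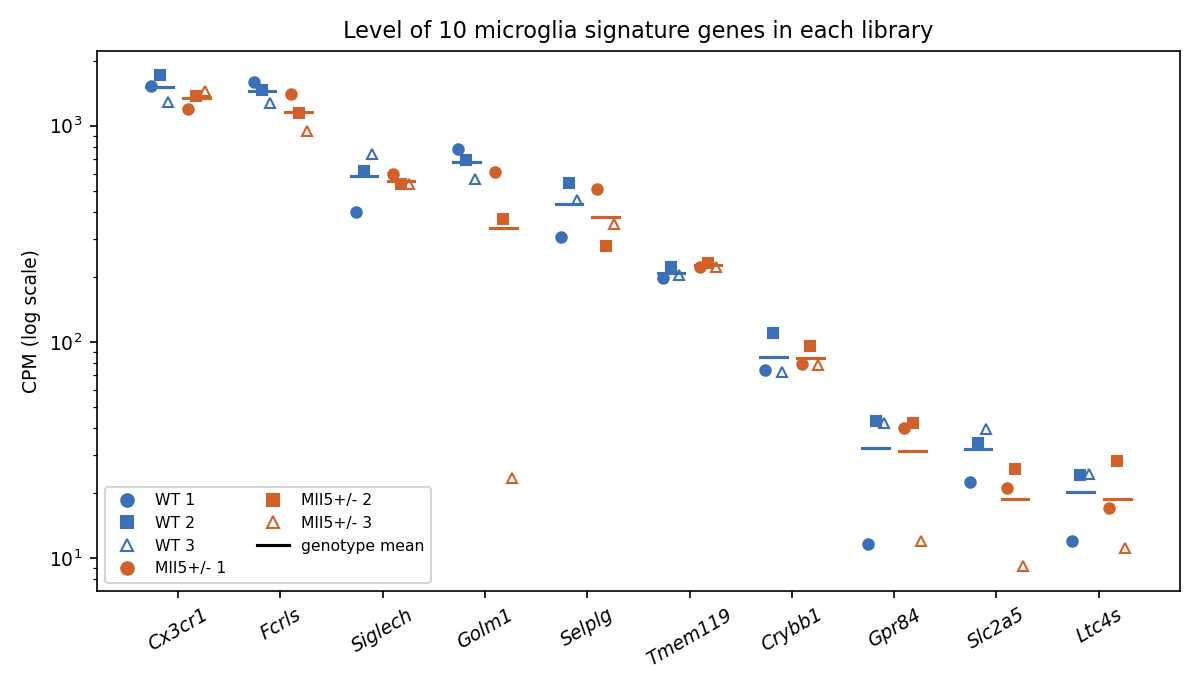
Level of each of the 10 genes in CPM (log axis) in the 3 libraries labelled WT (blue) and the 3 labelled Mll5+/- (orange), with a symbol for each replicate and a line for each genotype's mean. Tmem119 sits between 197 and 232 CPM in all 6 libraries, while Golm1 drops to 23.4 CPM in Mll5+/- replicate 3 and Gpr84 has 2 libraries at 11.6 and 12 CPM and 4 between 40.0 and 43.2 CPM.

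Promoter sequence was read to show what stands before the starts of some of the genes. These were Golm1 and Gpr84, which had the largest spread within genotypes, Ltc4s, and the pair that held most of the motifs looked for. RefSeq windows on GRCm38.p6, from 250 bases before to 50 bases after each start, were at hand for 8 of the 10 genes, all but Tmem119 and Selplg. The sequences, 5′ to 3′ along the gene, are the 250 bases before the start of Golm1 (chr13:59675785-59676034, minus strand), lowest in a single library, of Gpr84 (chr15:103310439-103310688, minus strand) and Ltc4s (chr11:50238533-50238782, minus strand), lowest in the same pair of libraries, and of Fcrls (chr3:87263525-87263774, minus strand) and Crybb1 (chr5:112255570-112255819, plus strand), with matches to the motifs in capitals.
Golm1: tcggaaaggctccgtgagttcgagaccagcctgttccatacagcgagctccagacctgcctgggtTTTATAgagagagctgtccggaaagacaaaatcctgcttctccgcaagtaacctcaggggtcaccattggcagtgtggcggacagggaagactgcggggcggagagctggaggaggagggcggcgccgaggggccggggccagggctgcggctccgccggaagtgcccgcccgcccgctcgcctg
Gpr84: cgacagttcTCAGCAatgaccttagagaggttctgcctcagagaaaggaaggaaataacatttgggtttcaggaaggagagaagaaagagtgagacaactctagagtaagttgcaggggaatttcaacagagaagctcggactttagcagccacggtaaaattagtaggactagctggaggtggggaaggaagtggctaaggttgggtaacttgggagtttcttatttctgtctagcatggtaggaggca
Ltc4s: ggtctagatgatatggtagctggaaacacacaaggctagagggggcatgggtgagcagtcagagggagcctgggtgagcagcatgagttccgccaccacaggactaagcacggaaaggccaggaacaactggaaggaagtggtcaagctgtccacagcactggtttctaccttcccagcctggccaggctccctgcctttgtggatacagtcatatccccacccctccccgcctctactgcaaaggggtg
Fcrls: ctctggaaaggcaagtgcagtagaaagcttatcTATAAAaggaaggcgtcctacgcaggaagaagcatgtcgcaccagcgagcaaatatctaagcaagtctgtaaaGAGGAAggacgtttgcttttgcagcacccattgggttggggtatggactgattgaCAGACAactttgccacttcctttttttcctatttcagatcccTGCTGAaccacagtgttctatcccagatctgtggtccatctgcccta
Crybb1: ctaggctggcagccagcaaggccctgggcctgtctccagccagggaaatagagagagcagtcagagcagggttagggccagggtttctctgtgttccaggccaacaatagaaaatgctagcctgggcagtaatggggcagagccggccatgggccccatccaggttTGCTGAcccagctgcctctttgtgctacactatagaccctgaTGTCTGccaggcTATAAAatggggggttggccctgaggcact
The letters searched, on both strands, were GAGGAA and GAGGAAGT (cores read by PU.1, the latter holding the former), TGCTGA (part of the site of MAF factors), CAGACA (read by SMAD factors) and TATAAA (the TATA box). GAGGAA was found in 3 of the 8 windows (Fcrls, Siglech, Ltc4s) and in 28.3% of all 32851 windows, and GAGGAAGT in 0 of 8 and 3.20% of all. TGCTGA was found in 3 of 8 (19.5% of all), CAGACA in 4 of 8 (21.0% of all) and TATAAA in 3 of 8 (13.6% of all). Fcrls held all of them but GAGGAAGT. The TATAAA of Crybb1 begins at position -30 from the start and the TGCTGA of Gpr84, on the opposite strand, at -241. In Ltc4s the only match, GAGGAA on the opposite strand, begins at 16 past the start and so lies outside the stretch shown. These are matches of letters, with no measurement of binding.

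Of the receptors, Cx3cr1 was the most abundant per length among the 10 after Fcrls. It had 1529.8, 1711 and 1294 CPM under the WT label and 1199.8, 1373 and 1452 CPM under the Mll5+/- label. The lowest level was in Mll5+/- replicate 1 and the highest in WT replicate 2, and the genotypes overlapped. This gave a log2 fold change of -0.17 (SE 0.160, 95% interval -0.53 to 0.19, edgeR unadjusted p = 0.310), which was -0.27 when WT replicate 3 was dropped and -0.09 when WT replicate 2 was. The deposited table places the gene on chromosome 9 from 119730682 to 119898945 (mm39, as for every gene position from that table), an interval of 168264 bases that also covers parts or the whole of Wdr48, Gorasp1 and Csrnp1. None of those 3 had more than 67.8 CPM in any library.

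In a list of 15 genes for fractalkine signalling, 12 other genes were tested, and none had an unadjusted p under 0.05 (5 above 0 and 7 below, median log2 fold change -0.09). The ligand gene Cx3cl1 was looked for but is not among the genes of the deposited count table. Adam10, the protease that sheds fractalkine from the cell surface, had 3429 ± 339 CPM under the WT label and 3062 ± 158 CPM under the Mll5+/- label (SD, n = 3 each). The gene of smallest p was Grk2, a kinase that desensitises G protein-coupled receptors, with 15.7, 4.46 and 13.9 CPM against 19.2, 20.3 and 46.9 CPM (libraries labelled WT first, edgeR unadjusted p = 0.0599). Its levels did not overlap, and Mll5+/- replicate 3 was the highest. Syk, a kinase downstream of immune receptors, had 124 ± 34.2 and 97.2 ± 4.45 CPM.

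Gpr84, a Gi-coupled receptor for medium-chain fatty acids on chromosome 15 from 103216662 to 103219039, split the libraries across genotypes. It had 11.6, 43.2 and 42.1 CPM under the WT label and 40.0, 42.2 and 12 CPM under the Mll5+/- label. One library of each genotype, WT replicate 1 and Mll5+/- replicate 3, was at about the same low level, and the other 4 lay between 40.0 and 43.2 CPM. Its log2 fold change was -0.04 (SE 0.623, 95% interval -1.46 to 1.37, edgeR unadjusted p = 0.949). The interval leaves room for a difference of more than 2-fold in either direction. Without WT replicate 1 the value was -0.45 and without Mll5+/- replicate 3 it was 0.33.

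The 2 libraries in which Gpr84 was low also held the fewest counts of the 6, 23884734 and 21075570. In the same libraries the summed level of dissociation-induced and immediate early genes (13 of 17 in the table) was 887 and 650 CPM, against 980 to 1104 CPM in the other 4. That order rests on Btg2, an antiproliferative gene, since the other 12 genes summed to 111 and 133 CPM in those 2 libraries and to between 112 and 168 CPM in the other 4. The part of depth or of these genes in the levels of Gpr84 was not tested. Of 15 other tested genes in a list for GPR84 signalling and inflammatory induction, 11 lay above 0 and 4 below (median log2 fold change 0.17). The cytokine gene Il1b was the 1 gene with an unadjusted p under 0.05 (edgeR unadjusted p = 0.0223, where 1.36% of all tested genes had one in the same direction). It had no count under the WT label and 0.671, 2.14 and 0.945 CPM under the Mll5+/- label, all low levels. Il1b passed the filter on low counts only through the libraries labelled Mll5+/-, so its p-value is no support for a difference. Il1a, the other interleukin-1 gene, had 17.4, 24.2 and 11.3 CPM and 56.1, 50.6 and 10.3 CPM, and overlapped. The adaptor gene Myd88 had 7.07, 1.27 and 4.65 CPM and 2.05, 10.4 and 32.5 CPM.

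Siglech encodes a member of the Siglec family, which is named for sialic acid-binding lectins. The protein is found on microglia and plasmacytoid dendritic cells and signals through the adaptor TYROBP. The gene, on chromosome 7 from 55417932 to 55428581, had 399, 615 and 739 CPM under the WT label and 596, 535 and 537 CPM under the Mll5+/- label. All 3 libraries labelled Mll5+/- fell inside the range of those labelled WT. The spread differed in size between the groups, with an SD of 172 CPM against 34.9 CPM, a difference that was not tested. Fitted, the log2 fold change was -0.07 (SE 0.230, 95% interval -0.59 to 0.45, edgeR unadjusted p = 0.762), and its sign turned without WT replicate 3 (0.13).

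In a list of Siglecs and their adaptors, 11 other genes were tested, with 7 above 0, 4 below and none at an unadjusted p under 0.05 (median log2 fold change 0.08). Cd33, an inhibitory sialic acid-binding receptor, was the gene of smallest p (edgeR, unadjusted p = 0.0594), with 208, 154 and 320.3 CPM under the WT label and 277, 424 and 355 CPM under the Mll5+/- label. The genotypes overlapped in 1 library of each. Tyrobp had 154 ± 61.7 and 228 ± 51.0 CPM (SD, n = 3 each, libraries labelled WT first).

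Fcrls, an Fc receptor-like scavenger molecule that marks microglia in the mouse, had the smallest unadjusted p of the 10 genes. Placed on chromosome 3, 87158065 to 87171045, it had 1601, 1466 and 1275 CPM under the WT label and 1398, 1149.6 and 941 CPM under the Mll5+/- label. The lowest levels were those of Mll5+/- replicates 2 and 3, while replicate 1 lay among the libraries labelled WT. The log2 fold change was -0.32 (SE 0.182, 95% interval -0.73 to 0.10, edgeR unadjusted p = 0.118). It was -0.48 without Mll5+/- replicate 1 (edgeR unadjusted p = 0.0384), -0.19 without Mll5+/- replicate 3 and -0.11 without both WT replicate 1 and Mll5+/- replicate 3. Of 6 other tested Fc receptor-like and Fc receptor genes, 3 lay above 0 and 3 below, none with an unadjusted p under 0.05. The nearest to it in p were Fcrl1, with 40.9 ± 9.71 and 26.0 ± 7.27 CPM, Fcgr3, a low-affinity receptor for immunoglobulin G, with 257 ± 47.0 and 213 ± 32.7 CPM, and Fcgr4, with 10.6 ± 3.46 and 13.8 ± 8.95 CPM (SD, n = 3 each, libraries labelled WT first).

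Selplg encodes PSGL-1, the mucin-like ligand with which white blood cells bind selectins. It lies on chromosome 5 from 113956597 to 113970705, with 18019 bases and no other listed gene between it and Tmem119. Selplg had 306, 541 and 455 CPM under the WT label and 511, 277 and 349 CPM under the Mll5+/- label. Each genotype held high and low libraries, and the log2 fold change was -0.20 (SE 0.284, 95% interval -0.84 to 0.45, edgeR unadjusted p = 0.509), with -0.49 without Mll5+/- replicate 1 and -0.02 without either WT replicate 2 or Mll5+/- replicate 2. PSGL-1 binds selectins after it has been sulfated and decorated with sugars. Among 10 other tested genes of that modification and of the selectins, 6 lay above 0 and 4 below, and none had an unadjusted p under 0.05.

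Gcnt1, the enzyme that builds the branched core on which the selectin-binding sugar is made, had 185 CPM in Mll5+/- replicate 3 and between 0.460 and 1.56 CPM in the other 5 libraries. St3gal6, a sialyltransferase, had 363 ± 59.1 CPM under the WT label and 280.2 ± 6.94 CPM under the Mll5+/- label (SD, n = 3 each, log2 fold change -0.37, edgeR unadjusted p = 0.0771). Its levels did not overlap between genotypes. The fucosyltransferase gene Fut4 reached 6.35 CPM in Mll5+/- replicate 1 and at most 0.772 CPM elsewhere.

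Tmem119, a transmembrane protein gene widely used as a microglia marker, was the steadiest of the 10. The gene, on chromosome 5 from 113931790 to 113938577, had 197, 221 and 204 CPM under the WT label and 223, 232 and 222 CPM under the Mll5+/- label. All 3 libraries labelled Mll5+/- lay above the highest labelled WT, with Mll5+/- replicate 3 and WT replicate 2 nearly level. This gave a log2 fold change of 0.12 (SE 0.181, 95% interval -0.29 to 0.53, edgeR unadjusted p = 0.517). An exact permutation test of the 2 groups gave p = 0.1 (two-sided), the smallest that 3 against 3 libraries can give. Any gene without overlap gets that value, so the test adds nothing to the separation itself. Without WT replicate 1 the log2 fold change was 0.08. The separation was lost when mitochondrial genes and the top 20 genes were left out of the library sizes.

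Golm1, which encodes a Golgi membrane protein, varied most. The gene lies on chromosome 13 from 59782440 to 59823625 and had 783, 694 and 566 CPM under the WT label and 611, 369 and 23.4 CPM under the Mll5+/- label. Mll5+/- replicate 3, with 496 counts, stood 15.7-fold below the next lowest library, while Mll5+/- replicate 1 lay within the range of those labelled WT. Its log2 fold change was -1.03 (SE 1.07, 95% interval -3.77 to 1.72, edgeR unadjusted p = 0.380), with -0.49 without that library (edgeR unadjusted p = 0.0956) and -1.80 without Mll5+/- replicate 1. The interval spans more than a 2-fold difference in both directions.

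A single low library was seen for other genes as well. Of 2938 tested genes with a mean of at least 50 CPM, 60 (2.04%) had 1 library at least 8-fold below the next lowest, 14 of them in Mll5+/- replicate 3, a rule chosen after the values of Golm1 were seen. Mll5+/- replicate 3 had the fewest counts of the 6 libraries, the highest share of mitochondrial counts (3.56%, against 1.88% to 2.90% in the others) and the highest summed border-associated macrophage markers (692 CPM). Stab1 (489 CPM) and Mrc1 (190 CPM) made up nearly all of that sum. The other 4 genes gave 13.8 CPM there and between 1.58 and 27.7 CPM in the others. Of these 4, Cd163 (5.25 CPM) was at its highest of the 6 libraries there, and F13a1 had 8.60 CPM. Lyve1 and Ms4a7 had no count in that library, nor in WT replicate 3. The part of these measures in the level of Golm1 was not tested. Naa35, which overlaps the deposited Golm1 interval by 1297 bases, had 182 CPM in that library and between 109 and 235 CPM in the others. Of 12 other tested Golgi processing genes, 2 lay above 0 and 10 below (median log2 fold change -0.15), none with an unadjusted p under 0.05. Its paralog Golm2 had 24.2, 56.4 and 78.6 CPM under the WT label and 41.7, 19.2 and 36.0 CPM under the Mll5+/- label, and in Mll5+/- replicate 3 stood between the other 2 libraries of its group. The glycosyltransferase gene Mgat1 had 24.8 ± 7.12 and 39.2 ± 15 CPM and the Golgi stacking gene Gorasp2 21.2 ± 10.4 and 13.5 ± 8.40 CPM (SD, n = 3 each, libraries labelled WT first).

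**Figure D2:**
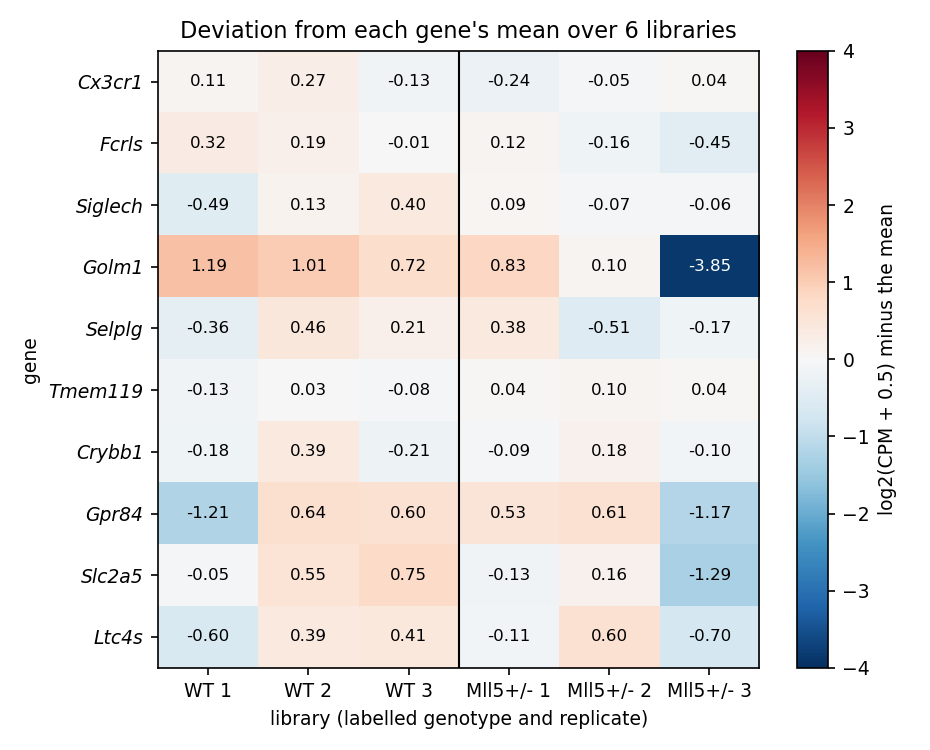
Deviation of each gene (row) in each library (column) from that gene's mean over the 6 libraries, in log2(CPM + 0.5) units, with libraries labelled WT left of the line. The darkest cell is Golm1 in Mll5+/- replicate 3 (-3.85), where Slc2a5 (-1.29), Gpr84 (-1.17) and Ltc4s (-0.70) were also at their low end.

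Slc2a5 encodes GLUT5, the fructose transporter, whose RNA and protein mark microglia among brain cells. Placed on chromosome 4, 150203740 to 150228626, it had 22.3, 34.1 and 39.3 CPM under the WT label and 21.1, 25.8 and 9.17 CPM under the Mll5+/- label. Mll5+/- replicate 3 was lowest, 2.30-fold below the next, and the groups overlapped. Fitted, the log2 fold change was -0.77 (SE 0.495, 95% interval -1.89 to 0.35, edgeR unadjusted p = 0.154), and -0.46 without that library.

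Of 13 other tested genes for hexose transport and fructose use, 7 lay above 0 and 6 below (median log2 fold change 0.24), none with an unadjusted p under 0.05. Slc2a1, the glucose transporter GLUT1, had 23.1, 18.2 and 7.46 CPM under the WT label and 23.7, 33.9 and 23.7 CPM under the Mll5+/- label, without overlap (edgeR unadjusted p = 0.185). The neuronal-type glucose transporter gene Slc2a3 had 3.26, 0.462 and 9.72 CPM and 0, 1.16 and 0.284 CPM. Hk2, a hexokinase that traps glucose in the cell, had 892 ± 179 and 1056 ± 133 CPM (SD, n = 3 each).

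Ltc4s encodes leukotriene C4 synthase, which joins glutathione to leukotriene A4. Placed on chromosome 11, 50127296 to 50129443, it had 11.9, 24.2 and 24.6 CPM under the WT label and 16.9, 28.1 and 11.1 CPM under the Mll5+/- label. As for Gpr84, the lowest libraries were WT replicate 1 and Mll5+/- replicate 3. The log2 fold change was -0.11 (SE 0.530, 95% interval -1.32 to 1.09, edgeR unadjusted p = 0.838), and its sign turned without WT replicate 2 (0.03), WT replicate 3 (0.05) or Mll5+/- replicate 3 (0.14).

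Of 12 other tested genes of leukotriene and eicosanoid synthesis, 5 lay above 0 and 7 below (median log2 fold change -0.08), none with an unadjusted p under 0.05. Ggt5, which turns leukotriene C4 into leukotriene D4, had 124, 128 and 120.2 CPM under the WT label and 98.2, 75.8 and 96.7 CPM under the Mll5+/- label. Its levels did not overlap (log2 fold change -0.46, SE 0.229, edgeR unadjusted p = 0.0784). Alox5ap, which presents arachidonic acid to the first enzyme of the pathway, had 24.4, 16.2 and 18.3 CPM and 34.8, 22.2 and 47.4 CPM, with overlap in 1 library of each genotype (edgeR unadjusted p = 0.0872). Tbxas1, thromboxane synthase, had 46.1 ± 11.5 and 35.8 ± 3.73 CPM (SD, n = 3 each).

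Crybb1 encodes a beta crystallin, a structural protein of the lens that microglia transcribe as well. Placed on chromosome 5, 112403681 to 112417451, it had 73.8, 110.1 and 72.4 CPM under the WT label and 78.8, 95.2 and 77.9 CPM under the Mll5+/- label. The 3 libraries labelled Mll5+/- fell inside the range of those labelled WT, and the log2 fold change was -0.02 (SE 0.275, 95% interval -0.65 to 0.60, edgeR unadjusted p = 0.931), which turned to 0.18 without WT replicate 2 and also lay above 0 without Mll5+/- replicate 1 or Mll5+/- replicate 3. Of 8 other crystallin genes looked for, 4 were tested, 2 above 0 and 2 below. Cryba4, the most abundant of them, had 19.2 ± 4.92 and 21.4 ± 13.6 CPM, and Cryz, a quinone reductase of the crystallin name, 6.60 ± 2.69 and 11.6 ± 4.62 CPM (SD, n = 3 each, libraries labelled WT first). Cryba1 had at most 1.39 CPM in any library.

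**Figure D3:**
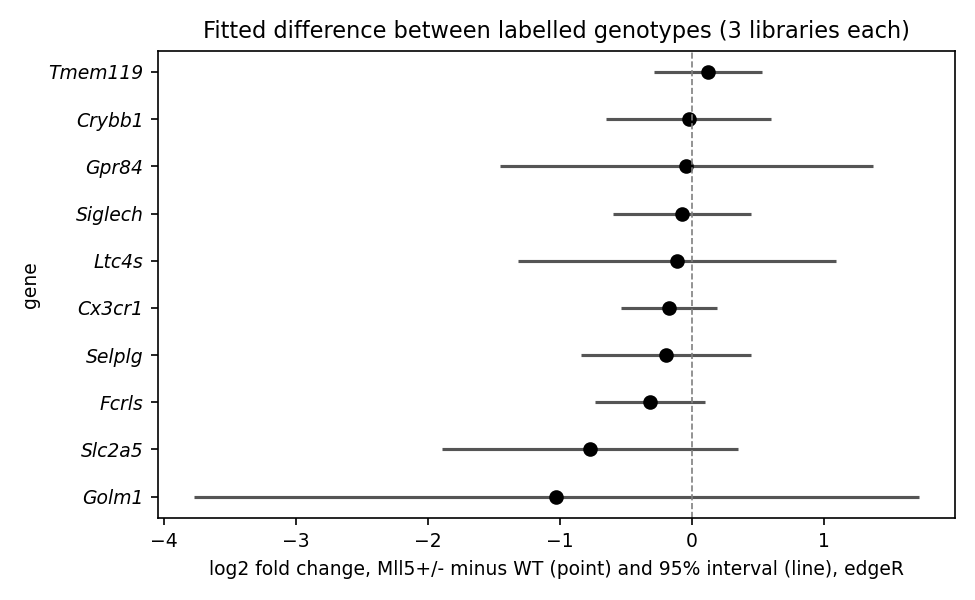
Fitted log2 fold change (point) and 95% interval (line) of each gene, libraries labelled Mll5+/- minus those labelled WT, 3 libraries each, edgeR. Every interval includes 0, from Cx3cr1 at -0.53 to 0.19 to Golm1 at -3.77 to 1.72.

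Per length of transcript, the order of levels could be set. CPM was divided by the summed exon length of the gene in GENCODE M21, given here as CPM per kb with the SD over all 6 libraries. Fcrls was highest with 559 ± 101, followed by Cx3cr1 with 317 ± 40.2, and both stood clear of the next gene in every library. Siglech had 169 ± 33.2 and Golm1 115 ± 62.2, and these overlapped. Selplg (95.1 ± 25.9), Tmem119 (93.5 ± 5.65) and Crybb1 (86.0 ± 15.1) did not differ beyond their spread, nor did Golm1 from these 3. Ltc4s (19.2 ± 7.07), Gpr84 (18.5 ± 9.02) and Slc2a5 (7.44 ± 3.11) formed the low end, and the ranges of neighbours overlapped there too. Among 10596 tested genes with an exon length, Fcrls ranked 51, Cx3cr1 86 and Siglech 166 by this measure, while Slc2a5 ranked 3723.

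The spread between mice of one genotype was set beside that of other genes. The SD of log2(CPM + 0.5) within genotypes was 0.06 for Tmem119, a value below which 0.157% of tested genes fell, and 0.17 for Cx3cr1 (3.97%). It was below the median of all tested genes, 0.68, for 8 of the 10 genes. The exceptions were Gpr84 with 1.03 and Golm1 with 1.79, and 93.5% of tested genes had a smaller spread than Golm1. Since abundant genes vary less, each gene was also set beside genes within 2-fold of its own mean level. There, 5 of the 10 had a smaller spread than over 50% of such genes. Of genes of like level, 96.4% varied less than Golm1, 86.4% than Gpr84, 80.5% than Selplg, 71.9% than Siglech and 51.8% than Slc2a5.

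**Figure D4:**
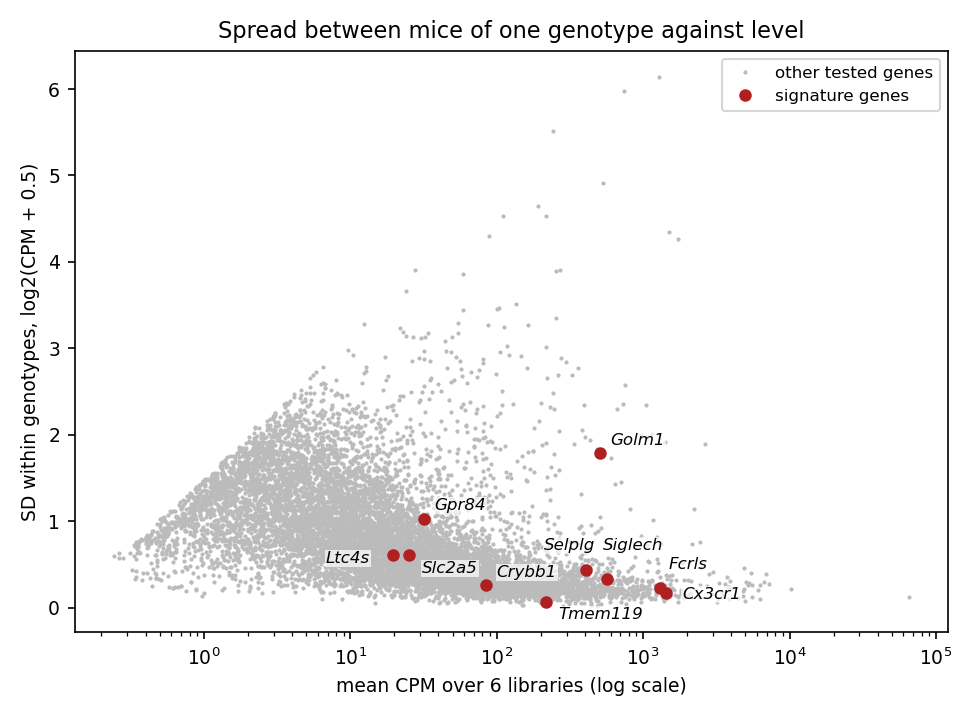
SD within genotypes of log2(CPM + 0.5) against the mean CPM over 6 libraries (log axis) for all tested genes (grey) and the 10 signature genes (red). Tmem119 (0.06) lies at the lower edge of the genes of its level, and Golm1 (1.79) far above most genes of its level.

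By library, the 10 genes together took 4934, 5459 and 4711 CPM under the WT label and 4695, 4126 and 3634 CPM under the Mll5+/- label. These sums did not overlap between the genotypes, but WT replicate 3 and Mll5+/- replicate 1 were nearly level. Cx3cr1, Fcrls and Golm1 make up most of each sum. Without those 3, the sums were 1021, 1588 and 1576 CPM and 1486, 1235 and 1218 CPM, and overlapped. Counted gene by gene, all 10 were above their own mean in WT replicate 2, whereas 8 of 10 were below it in Mll5+/- replicate 3 and 7 of 10 in WT replicate 1. Mll5+/- replicate 3 held the lowest level of 4 of the genes and WT replicate 1 of 3.

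Other homeostatic microglia genes, among them P2Y receptors, transcription factors and secreted proteins, were set beside the 10. All 50 on that list were tested, 12 above 0 and 38 below, with a median log2 fold change of -0.08 beside the -0.14 of the 10 genes, a value that ran from -0.35 to -0.03 with single libraries left out. Of these, 5 had an unadjusted p under 0.05, all in the direction of lower levels in the libraries labelled Mll5+/- (1.52% of all tested genes had one in that direction), and none passed the adjustment in edgeR. They were P2ry12, Gpr34, Sparc, Serpine2 and Rnase4, a secreted ribonuclease gene. Rnase4 had 1299.8, 1376 and 1458 CPM under the WT label and 1207, 643 and 866.5 CPM under the Mll5+/- label (log2 fold change -0.61, SE 0.224, edgeR unadjusted p = 0.0245). The list was chosen with earlier results of these libraries known, and its count is no independent support for a direction. Whether the 10 genes differ from the other 50 was not tested.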

How the data were processed

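RNA-seq counts of 6 libraries, 3 labelled WT and 3 labelled Mll5+/-, were read from the deposited table (raw counts of reads per symbol, mm39), and replicates were numbered in sample order. The tools FastQC, STAR, StringTie and DESeq2 are named in the submitters' processing notes; for their versions, the counting and the strand: not given in the sources used here, so reads of overlapping or antisense genes cannot be told apart. Genes were filtered with filterByExpr (minimum count 10, minimum total 15), scaled by TMM and tested with edgeR's quasi-likelihood test (robust; edgeR 4.0.16, limma 3.58.1, DESeq2 1.42.0, R 4.3.3) with Benjamini-Hochberg adjustment over all 10832 tested genes and called at 0.05, with two-sided p-values throughout. SEs and 95% intervals come from the fitted log2 fold change and its F statistic. The fit was tested on simulated data. In these libraries 3 counts correspond to between 0.104 and 0.142 CPM, and since amplified reads carry no molecular identifiers, such floors cover counting error alone. Alternatives were other scalings, filters, thresholds and tools, and leaving out libraries. The genes named were the 10 members, up to 3 genes of smallest p of each list, the 2 most abundant markers of each other cell type, of which most are given here as sums, and Kmt2e. Serpine2 and Rnase4 were named outside it, after their values were seen, as 2 of 5 counted genes. Named likewise were Cd163, F13a1, Lyve1 and Ms4a7 as the other border-associated macrophage markers, and Gja1 and Plpp3 as astrocyte markers without overlap. Itgam, Ptprc and the genes overlapping a member were named as checks. The members, the lists and the rule were chosen with earlier results of these data known.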

Additional observations from a re-analysis of the deposited data

How the results depend on the processing

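No member passed an adjusted p of 0.05 under any of the 14 alternative fits (lowest adjusted p of a member 0.935) or at an adjusted p of 0.10. The direction of Cx3cr1, Tmem119, Fcrls, Selplg, Slc2a5 and Golm1 was the same in all 14. Crybb1, Gpr84, Ltc4s and Siglech changed sign in 3, 4, 4 and 2 of them, and the causes were not tested. With limma-voom, which weights the libraries, the log2 fold changes were 0.263 for Gpr84, 0.0224 for Ltc4s and 0.0372 for Siglech. Over the libraries left out singly, Crybb1 ran from -0.14 to 0.18, with 0.18 without WT replicate 2, 0.01 without Mll5+/- replicate 1 and 0.02 without Mll5+/- replicate 3. Gpr84 ran from -0.45 to 0.33, with 0.22 without WT replicate 2, 0.20 without WT replicate 3 and 0.33 without Mll5+/- replicate 3. Ltc4s ran from -0.54 to 0.14, with 0.03, 0.05 and 0.14 without the same 3 libraries, and Siglech from -0.30 to 0.13, the latter without WT replicate 3. The median of the members was lowest without WT replicate 1 (-0.35) and highest without WT replicate 2 (-0.03), and was -0.18 without WT replicate 1 and Mll5+/- replicate 3, a setting chosen after seeing the data. Of all genes, 0 passed in the edgeR test with 312 under an unadjusted p of 0.05, 29 in DESeq2, between 0 and 2 with single libraries left out and 1 without WT replicate 1 and Mll5+/- replicate 3. With library sizes taken without mitochondrial and the 20 most abundant genes, 0 members were without overlap, against 1. No paired analysis was possible because the labels give the genotypes no shared replicate numbers. With 3 mice a group, the intervals of Gpr84, Ltc4s, Slc2a5 and Golm1 are too wide to show differences under 2-fold.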

Other observations

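The single low libraries counted beside Golm1 were spread over both labelled genotypes. Of the 60 genes with a mean of at least 50 CPM and 1 library at least 8-fold below the next, the low library was WT replicate 1 for 13, WT replicate 2 for 10, WT replicate 3 for 4, and Mll5+/- replicates 1, 2 and 3 for 9, 10 and 14. Among the 7 signature genes with that mean level, Golm1 was the 1 that met the rule.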
